A study of Homo sapiens with 8 samples.

Results

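The human genes named ZNF followed by a number form a large set of zinc finger genes, and 239 of the 460 such genes in the deposited table had a mean of at least 10 CPM (read counts per 1000000, scaled for library composition) over the low glucose libraries. The cells were MDA-MB-157, a long-established line from a breast tumor that the labels give as ER negative. Cells were kept for 48 hours with 5 mM glucose (low glucose, n = 4 libraries) or 25 mM glucose (high glucose, n = 4 libraries), in T25 flasks and, per the culture methods, without serum. The labels name no transgene or further agent, no library with an osmotic control is among the 8, and the labels do not say whether replicates were separate experiments, so p-values measure the spread between these libraries. The question is how a change of glucose that models hyperglycemia alters these transcripts.

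Most ZNF proteins hold repeated C2H2 fingers, short loops in which a pair of cysteines and a pair of histidines hold a zinc ion and neighbouring residues read DNA. Many also carry a KRAB box, which recruits TRIM28 (KAP1), the histone methyltransferase SETDB1 and HP1 proteins to silence transposable elements and other targets. KRAB genes arose in large numbers by local duplication, and many lie in clusters on chromosome 19. Other ZNF proteins lack the box and act as promoter activators, chromatin factors, RNA-binding proteins or ubiquitin and SUMO ligases.

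In the canonical transcripts of GENCODE release 44 on GRCh37, 135 of 235 members with a usable translated protein matched a KRAB box pattern and 100 did not. The number of C2H2 patterns ranged from 0 to 36 with a median of 10, and the highest count was that of ZNF142. Of the 239 members, 98 lay on chromosome 19 and 19 on chromosome 7. The finger unit is shown as the coding DNA of 1 finger from 5 members, on the strand of the gene and in GRCh37, because it is the sequence the family shares. Capitals mark the cysteine and histidine codons.
ZNF316, chr7:6692266-6692328, plus strand: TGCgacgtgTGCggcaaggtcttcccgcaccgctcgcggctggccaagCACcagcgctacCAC
ZNF850, chr19:37241285-37241347, minus strand: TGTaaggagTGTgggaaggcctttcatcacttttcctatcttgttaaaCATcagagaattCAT
ZNF135, chr19:58578498-58578560, plus strand: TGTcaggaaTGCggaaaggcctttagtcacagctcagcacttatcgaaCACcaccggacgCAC
ZNF143, chr11:9519275-9519343, plus strand: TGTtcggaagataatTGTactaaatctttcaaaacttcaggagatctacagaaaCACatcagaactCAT
ZNF76, chr6:35259108-35259176, plus strand: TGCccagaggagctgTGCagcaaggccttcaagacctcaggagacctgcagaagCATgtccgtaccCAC
The fingers of ZNF316, ZNF850 and ZNF135 span 21 residues with 2 residues between the cysteines. Those of ZNF143 and ZNF76 span 23 residues with 4 between the cysteines, and these last fingers shared 44 of 69 bases and 17 of 23 residues.

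Promoter windows of RefSeq (GRCh38.p14) were matched by symbol for 207 of the 239 members. The 250 bases before the start of transcription are shown for a pair of neighbours that moved in opposite directions (ZNF316 and ZNF853), for the member with the next largest rise (ZNF850) and for the promoter factor ZNF143. Sequences run 5′ to 3′ on the strand of the gene, and capitals mark motif matches.
ZNF316, chr7:6637068-6637317, plus strand: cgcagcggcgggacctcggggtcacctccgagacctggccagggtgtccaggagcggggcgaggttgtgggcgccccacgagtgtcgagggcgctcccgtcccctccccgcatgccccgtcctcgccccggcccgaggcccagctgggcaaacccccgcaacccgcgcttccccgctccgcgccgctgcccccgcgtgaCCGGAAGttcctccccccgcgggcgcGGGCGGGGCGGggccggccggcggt
ZNF853, chr7:6615360-6615609, plus strand: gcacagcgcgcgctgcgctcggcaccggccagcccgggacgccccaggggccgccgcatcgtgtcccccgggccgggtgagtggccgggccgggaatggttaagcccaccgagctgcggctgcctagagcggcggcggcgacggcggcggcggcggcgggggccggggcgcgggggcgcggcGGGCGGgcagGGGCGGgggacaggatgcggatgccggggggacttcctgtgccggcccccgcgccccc
ZNF850, chr19:36772808-36773057, minus strand: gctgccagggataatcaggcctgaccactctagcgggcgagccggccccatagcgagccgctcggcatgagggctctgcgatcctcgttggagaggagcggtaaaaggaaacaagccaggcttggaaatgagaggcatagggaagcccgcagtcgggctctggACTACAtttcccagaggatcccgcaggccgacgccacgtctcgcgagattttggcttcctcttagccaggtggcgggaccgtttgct
ZNF143, chr11:9460762-9461011, plus strand: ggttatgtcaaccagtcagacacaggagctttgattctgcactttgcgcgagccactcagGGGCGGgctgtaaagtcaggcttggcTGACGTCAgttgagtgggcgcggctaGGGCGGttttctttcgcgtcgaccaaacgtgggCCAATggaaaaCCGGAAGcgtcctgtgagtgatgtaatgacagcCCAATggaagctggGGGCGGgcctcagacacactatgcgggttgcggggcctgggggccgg
The motifs searched on both strands were an E-box (CACGTG), the CCAAT box (CCAAT), a GC box (GGGCGG), an ETS core (CCGGAAG), a CRE (TGACGTCA), the start of the site bound by ZNF143 (ACTACA) and a TATA box (TATAAA). The ZNF316 window held an ETS core and 2 GC boxes that overlap by 1 base, the ZNF853 window 2 GC boxes, the ZNF850 window 1 ACTACA match, and the ZNF143 window 7 matches. CpG dinucleotides numbered 36 for ZNF316, 40 for ZNF853, 19 for ZNF850 and 17 for ZNF143.

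Genes at the same level are, here and below, those with a low glucose mean of at least 10 CPM, a shared minimum and not a matched level. Across whole windows of 300 bases, the ETS core was found in 40.6% of the 207 members with a promoter. It was in 21.7% of the 7734 windows of genes of any name at the same level and 10.7% of all 27305 windows. The CCAAT box was found in 47.3%, against 37.3% and 35.7%. The GC box was found in 64.3% of the members, 72.6% of genes at the same level and 44.6% of all windows, and the E-box in 5.80%, 10.9% and 7.43%. The CRE was found in 4.83%, 3.54% and 1.98%, and the TATA box in 4.35%, 4.89% and 11.9%.
Members that were lower and higher at high glucose had like shares of most motifs. The ETS core was in 41.5% of 65 lower and 39.0% of 59 higher members, the GC box in 64.6% and 64.4%, and ACTACA in 13 and 12 of them, against 6 of 83 members without a call. The letters ACTACA were chosen after the printed windows were seen, so their counts support nothing. ACTACA was in 31 of the 207 members, beside 9.40% of genes at the same level and 8.95% of all windows. The CRE was in 1 of 65 lower and 5 of 59 higher members. These are counts of letters in a window, and no difference between them was tested.

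Depth was estimated at 9721649 to 12482542 reads in each library, so that 10 CPM stood for about 113 to 142 reads. The 3 reads taken as the limit of a count of 0 stood for 0.212 to 0.267 CPM, which covers counting error only. Of the cell markers, VIM was at 2856 to 4116 CPM and KRT18 at 156 to 238 CPM, ESR1 was at 0 to 0.170 CPM, PTPRC at 0 to 0.178 CPM and CDH5 at 0 to 0.364 CPM. Epithelial KRT8 was at 76.4 to 138 CPM and EPCAM at 3.93 to 7.62, with KRT19 at or under 0.0825 and CDH1 at or under 1.41. FN1 reached 2008 to 3650 CPM and CDH2 52.1 to 78.2, PGR 4.33 to 5.95, CD14 0.801 to 5.79, PECAM1 0.911 to 2.84 and HBA1 0 to 1.41.

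High glucose replicate 1 stood apart, for these genes and for genes of any name. It was the lowest of the 4 high glucose libraries for 144 of the 239 members (60.3%), against 33.0% of the 9699 genes of any name with a low glucose mean of at least 10 CPM. This library was the highest of the 4 for 38 members and for 4075 of those 9699 genes. In the fit with library weights it had the lowest weight, 0.322. Relative to the low glucose mean, the median member lay at -0.16 in this library and between -0.01 and 0.03 in the other 3, on the log2(CPM + 1) scale. Its difference from the other 3 high glucose libraries fell with transcript length across members (Spearman rho = -0.54 over 237 members of these libraries). Over all genes at the same level rho was -0.69, and the median transcript was 4431 bases for the members and 3540 for genes at the same level. Counts of calls with all libraries are therefore followed by those without this library, except for counts by other level minimums or scalings, by size of change, by neighbouring pairs and by promoter motif, and the part of transcript length in the changes was tested only by removing its trend.

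**Figure D1:**
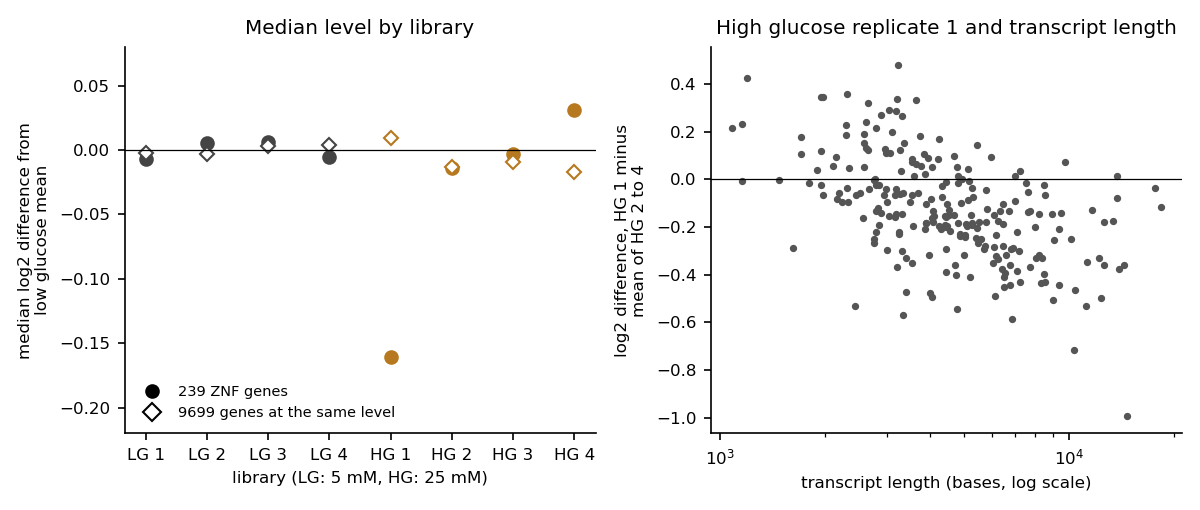
Left, median over the 239 ZNF genes (circles) and over 9699 genes at the same level (diamonds) of the difference from the low glucose mean, in log2(CPM + 1), for each library. Right, for 237 members, the log2 difference between high glucose replicate 1 and the mean of the other 3 high glucose libraries against transcript length in bases on a log axis. Replicate 1 lies at -0.16 for the members, while the other 3 high glucose libraries lie between -0.01 and 0.03.

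The ZNF genes moved in both directions at high glucose. In bulk RNA, fewer cells with a transcript and less of it per cell cannot be told apart. The members were selected on their low glucose level, which is a side of this contrast, so the counts are a description of the members. Of the 239 members, 79 were lower and 66 higher (limma, Benjamini-Hochberg adjusted p under 0.05 over all 21059 genes), 33.1% and 27.6%. Of the genes of any name at the same level, 34.6% were lower and 34.0% higher, and of all genes tested, 24.8% were lower and 22.0% higher. The median low glucose mean was 20.5 CPM for the members and 38.45 CPM for genes at the same level. These shares are therefore not matched for level. The groups did not overlap for 78 lower and 62 higher members, where 33.7% and 32.9% of genes at the same level were apart. Leaving out high glucose replicate 1, they did not overlap for 81 and 74 members, beside 38.7% and 37.0%.
Without high glucose replicate 1, 75 members were lower and 71 higher, against 37.4% and 36.2% of genes at the same level. Of the calls with all libraries, 71 lower and 61 higher were made again. The median change of the members on the log2(CPM + 1) scale was -0.05 with all libraries and 0.00086 without that library, against -0.01 and -0.01 over genes at the same level.
Which direction was more frequent changed with the libraries that set the level and with the scaling. With the minimum of 10 CPM set on the high glucose mean instead, 231 genes qualified, of which 53 were lower and 83 higher. With it set on the mean over all 8 libraries, 242 qualified, of which 67 were lower and 78 higher. A minimum set on high glucose favors higher calls, and shares of all genes under these other minimums are not given. With the level set on low glucose, the 239 members gave 69 lower and 71 higher under median-of-ratios scaling and 68 and 69 under quantile normalization. Higher calls were 45.5% of the called members in the main fit, 50.7% under median-of-ratios scaling and 50.4% under quantile normalization. Among called genes at the same level they were 49.6%, 53.9% and 47.1%. Just inside the minimum were ZNF480 at 10.1 CPM, ZNF347 at 10.3 and ZNF510 at 10.3, and just outside it ZNF212 at 9.98, ZNF8 at 9.98 and ZNF624 at 9.90. The 221 ZNF-numbered genes under the minimum had 48 lower and 34 higher calls, and 42 and 37 without high glucose replicate 1. With all libraries these are 21.7% and 15.4%, beside 24.8% and 22.0% of all genes tested, which include those above the minimum. The share of genes of any name under the minimum is not given, so nothing is read from these counts.

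**Figure D2:**
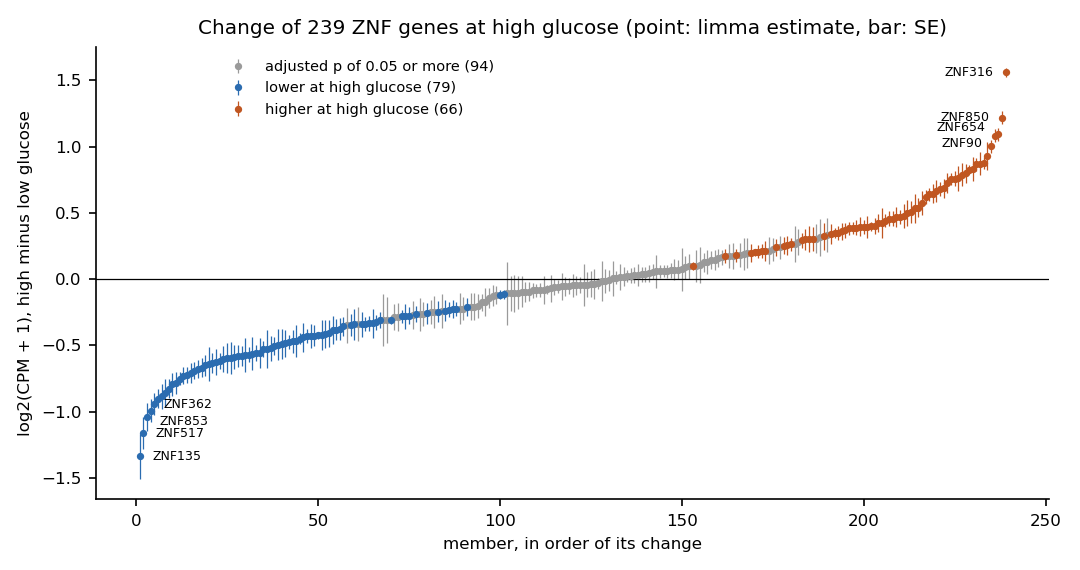
The 239 ZNF genes in order of their change, with the difference of high minus low glucose in log2(CPM + 1) on the vertical axis, points for limma estimates and bars for standard errors. The 79 lower and 66 higher members lie on both sides of 0, from -1.34 for ZNF135 to 1.56 for ZNF316.

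Most changes were moderate. The members ranged from -1.34 to 1.56 on the log2 scale, the middle of them from -0.34 to 0.26 (quartiles), and the median size of a called change was 0.47. Among called members, 5 rose by at least 1 and 3 fell by at least 1 on that scale, of 239 members. Of the 9699 genes at the same level, 250 rose and 359 fell by at least 1 with a call. Their quartiles were -0.37 and 0.32 and their median called size was 0.48, so moderate changes were not particular to the members.
Summed over the members, the level was 7056 ± 37.02 CPM at low glucose and 7427 ± 345 at high glucose (SD, n = 4). High glucose replicate 1 was at 6932 CPM, below the 7019 to 7106 of the low glucose libraries, while the other 3 high glucose libraries were at 7494 to 7729 and did not overlap with them.

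ZNF316, a KRAB zinc finger gene with 14 finger patterns, had the largest rise. It measured 53.2, 56.6, 57.4 and 54.6 CPM in the low glucose libraries and 169, 159, 172 and 163 CPM in the high glucose libraries, without overlap. Its mean went from 55.4 ± 1.92 to 166 ± 5.80 CPM (SD, n = 4), 2.99-fold (log2 difference 1.56, SE 0.03, limma adjusted p = 5.05e-07).
ZNF853, which lacks the KRAB pattern and starts 21708 bases before ZNF316 on the same strand of chromosome 7 (GRCh37), went the other way. It measured 13.8, 12.9, 15.8 and 15.95 CPM at low glucose and 6.64, 7.01, 7.26 and 5.42 CPM at high glucose. It fell by 1.04 on the log2 scale (SE 0.10, limma adjusted p = 1.82e-04), and its groups did not overlap either.

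The next rises were those of ZNF850, ZNF654, ZNF90, ZNF317 and ZNF787. ZNF850, a KRAB gene with 29 finger patterns, was at 20.004, 19.8, 19.1 and 17.9 CPM at low glucose and 42.8, 45.4, 47.9 and 47.8 CPM at high glucose, 2.40-fold (log2 difference 1.22, limma adjusted p = 3.54e-06). ZNF654 was at 15.2 to 17.1 CPM and 33.0 to 36.6 CPM, a log2 difference of 1.09 (limma adjusted p = 5.37e-06), and its exons overlap those of CGGBP1 on the other strand. The methods name a stranded kit, but the use of strand in the counting is not established, so reads of those genes may not be told apart.
ZNF90 and ZNF317, KRAB genes of chromosome 19, also rose without overlap. ZNF90 was at 12.6 to 13.5 CPM at low and 27.4 to 31.7 CPM at high glucose (log2 difference 1.08, limma adjusted p = 5.81e-06). ZNF317 was at 79.2 to 87.2 and 155 to 177 CPM (log2 difference 1.0, limma adjusted p = 8.19e-06). ZNF787, without the KRAB pattern, was at 14.7 to 17.6 and 27.2 to 37.4 CPM, with high glucose replicate 1 the highest (log2 difference 0.93, limma adjusted p = 3.18e-04). Without that library its difference was 0.84.

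The largest fall was that of ZNF135, a KRAB gene of chromosome 19 with 16 finger patterns. It measured 11.9, 13.8, 12.2 and 15.1 CPM at low glucose and 3.17, 5.41, 4.37 and 5.91 CPM at high glucose. The groups did not overlap, and it fell by 1.34 on the log2 scale (SE 0.17, limma adjusted p = 5.60e-04).
ZNF517, a KRAB gene of chromosome 8, was at 24.7 to 27.1 CPM at low and 9.24 to 14.3 CPM at high glucose, where replicate 1 was the highest library. It fell by 1.16 on the log2 scale (limma adjusted p = 2.16e-04). ZNF362 measured 22.7, 23.1, 24.8 and 23.4 CPM and then 13.3, 11.2, 11.4 and 9.60 CPM, a fall by 0.99 (limma adjusted p = 9.73e-05). Of its transcript's 31-base words, 41.0% also occur in other genes, and AL513327.1 overlaps it on the same strand, so its reads may be shared.
ZNF692, a transcriptional repressor without the KRAB pattern, was at 19.2 to 21.3 CPM and 9.07 to 12.1 CPM and fell by 0.94 (limma adjusted p = 1.12e-04). These falls, that of ZNF853 and the 6 rises kept their direction and their call in all 18 alternative fits.

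**Figure D3:**
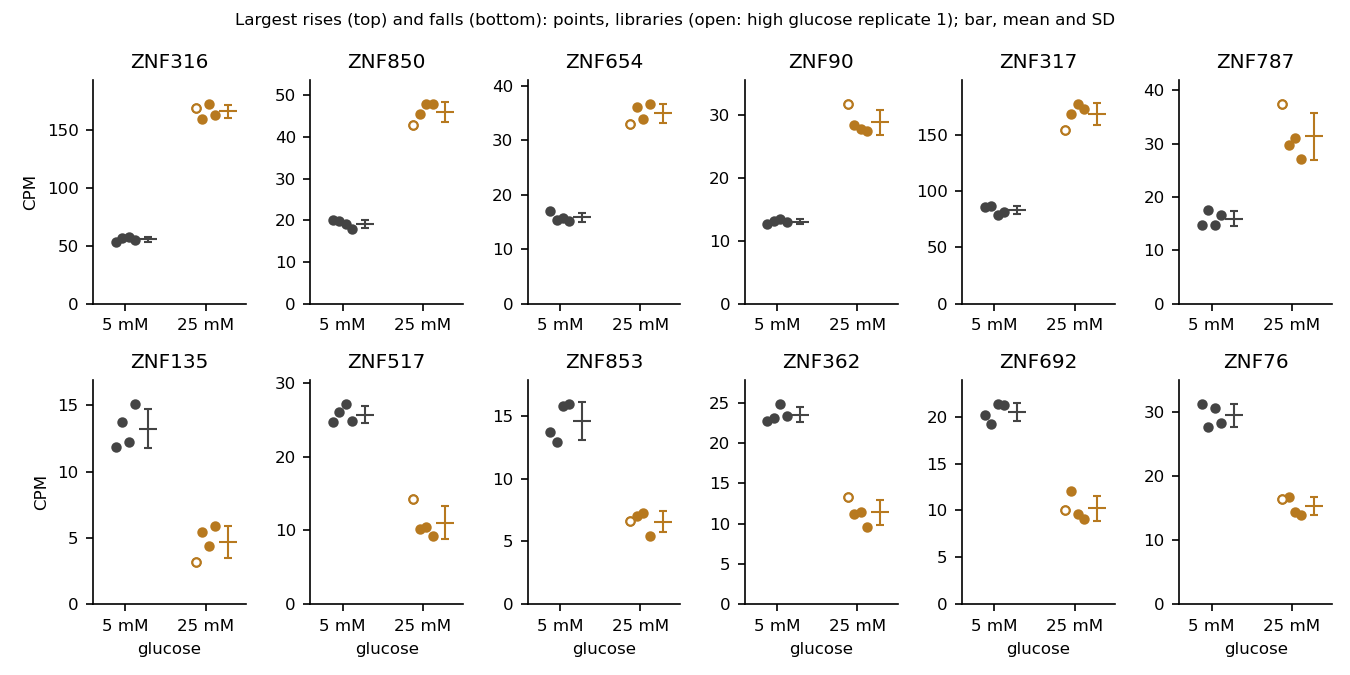
CPM in each library at 5 mM and 25 mM glucose for the 6 members with the largest rises (top) and the 6 with the largest falls (bottom), points for libraries, open points for high glucose replicate 1, and bars for the mean and SD of 4 libraries. The groups are apart in every panel, as in ZNF316, at 53.2 to 57.4 CPM and 159 to 172 CPM.

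Of the 16 listed promoter and chromatin factors, all of them members, 7 rose (43.8%), 4 fell (25.0%) and 5 had no call, beside 34.0% higher and 34.6% lower among genes at the same level. Without high glucose replicate 1, 9 rose and 4 fell. No test set these shares against each other. The role lists and the silencing machinery list below were chosen with earlier results of these data known, so their shares are description only. ZNF143, an activator that binds many promoters, and its paralog ZNF76 moved in opposite directions. ZNF143 measured 16.8, 18.7, 14.9 and 16.9 CPM at low glucose and 24.8, 26.5, 29.0 and 27.1 CPM at high glucose (log2 difference 0.65, SE 0.07, limma adjusted p = 3.37e-04). ZNF76 measured 31.3, 27.7, 30.7 and 28.4 CPM and then 16.4, 16.7, 14.4 and 13.9 CPM, a fall by 0.90 (SE 0.07, limma adjusted p = 6.00e-05).
Both genes had groups without overlap, and their order turned. Per kilobase of transcript, ZNF76 was at 11.1 and ZNF143 at 5.80 CPM at low glucose. Their translated proteins of 570 and 638 residues were identical at 63.2% of 546 aligned positions, and neither transcript shared a 31-base word with another gene.

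ZNF592, ZNF687 and ZNF532, which act together with the chromatin reader ZMYND8, did not move together. ZNF592 rose from 49.0 ± 1.87 to 64.9 ± 4.397 CPM (log2 difference 0.40, limma adjusted p = 6.85e-04), while ZNF687 fell by 0.32 (limma adjusted p = 0.00289) and ZNF532 by 0.41 (limma adjusted p = 0.0138). With the GC trend removed, the fall of ZNF687 was by 0.16 (limma adjusted p = 0.0408). Exons of ZNF687 overlap those of PI4KB on the other strand. High glucose replicate 1 was the lowest library for ZNF532, at 34.9 CPM against 44.8 to 47.5 in the other 3, and without it the fall was by 0.32. Other genes share 22.6% of the words of ZNF532.
ZNF644, a partner of the histone methyltransferases EHMT1 and EHMT2, rose from 56.1 to 73.8 CPM on average (log2 difference 0.39, limma adjusted p = 0.0013). ZNF263, ZNF24 and ZNF131 rose by like amounts, with log2 differences of 0.39, 0.36 and 0.35 (limma adjusted p = 3.49e-04, 0.00292 and 0.0016). Of the words of the ZNF263 transcript 49.4% occur in other genes, and another annotated gene overlaps it on the same strand. ZNF827, which recruits the NuRD complex to telomeres, fell by 0.48 (limma adjusted p = 3.75e-04), from 23.5 to 25.0 CPM at low to 15.95 to 18.97 CPM at high glucose.
ZNF217, an amplified oncogene of breast cancer, was at 147 to 161 CPM at low and 157 to 182 CPM at high glucose. Its groups overlapped, and its rise was small (log2 difference 0.18, limma adjusted p = 0.0241, with adjusted p up to 0.272 over 18 alternatives). Exons of another gene overlap those of ZNF217 on the other strand. ZNF148, which binds GC-rich promoter sites, and ZNF410, known for its nearly exclusive control of CHD4, had no call (log2 differences 0.04 and 0.04, limma adjusted p = 0.66 and 0.636). Of the words of the ZNF410 transcript 95.7% occur in other annotated genes, so its level is uncertain.
High glucose replicate 1 was the lowest high glucose library for ZNF281, ZNF292 and ZNF462. ZNF292 was at 65.6 to 75.4 CPM at low glucose, at 69.4 in that library and at 93.6 to 106 in the other 3. Its log2 difference was 0.33 with it (limma adjusted p = 0.0719) and 0.46 without it (limma adjusted p = 0.00169). ZNF281 gave 0.16 (limma adjusted p = 0.051) and, without the library, 0.22 (limma adjusted p = 5.93e-04). ZNF462 gave -0.31 (limma adjusted p = 0.2) and -0.13 without it, and had no call either way.

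Of the 12 listed ribosome, RNA and protein-modifying factors, 11 were members, of which 6 rose, 1 fell and 4 had no call, and the counts were the same without high glucose replicate 1. These are 54.5% higher and 9.09% lower, beside 34.0% and 34.6% of genes at the same level, also without a test and as description only. ZNF622, which acts in the late maturation of the large ribosomal subunit, was at 49.4, 49.1, 48.4 and 49.1 CPM at low glucose and 91.6, 83.9, 79.2 and 79.5 CPM at high glucose. ZNF330, a nucleolar protein in which the C2H2 pattern was not found, was at 32.1, 30.6, 31.9 and 30.2 CPM and then 57.2, 54.0, 58.0 and 55.3 CPM. Both rose without overlap, with log2 differences of 0.75 (SE 0.05, limma adjusted p = 1.82e-05) and 0.83 (SE 0.03, limma adjusted p = 3.14e-06).
ZNF598, the ubiquitin ligase that marks collided ribosomes, rose from 14.3 to 18.0 CPM to 19.2 to 26.3 CPM (log2 difference 0.54, limma adjusted p = 0.00588). ZNF830, a splicing factor, rose from 10.3 to 12.2 CPM to 15.7 to 18.5 CPM (log2 difference 0.54, limma adjusted p = 6.54e-04). ZNF451, a SUMO ligase, was at 49.1 to 49.9 CPM and 58.5 to 67.9 CPM (log2 difference 0.38, limma adjusted p = 5.41e-04). Exons of ZNF598 and of ZNF451 each overlap those of another gene on the other strand. Other genes share 19.3% of the words of ZNF598 and 14.1% of those of ZNF451, so their reads may not be told apart. ZNF207, which carries BUB3 to kinetochores, had a smaller rise, from 138 to 144 CPM to 157 to 167 CPM (log2 difference 0.20, limma adjusted p = 4.98e-04). Its difference was 0.10 with the GC trend removed and 0.10 under quantile normalization (limma adjusted p = 0.0403 and 0.00867).
The fall was that of ZNF346, which binds double-stranded RNA. It was at 29.0 to 33.9 CPM at low and 19.7 to 23.3 CPM at high glucose and fell by 0.58 (limma adjusted p = 5.73e-04). ZNF638, ZNF106, ZNF326 and ZNF706 had log2 differences between -0.08 and 0.02, with limma adjusted p from 0.203 to 0.852. ZNF593 was under the minimum, at 7.53 CPM at low and 8.28 at high glucose.

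Of the 8 listed KRAB repressors with known targets, 5 were members. ZNF202, a repressor of lipid metabolism genes, was the only one of them with a call with all libraries, a fall by 0.28 (limma adjusted p = 0.045), and the call was lost in 11 of 18 alternatives, with adjusted p up to 0.168. ZNF91, which silences SVA elements, was at 29.98 to 34.7 CPM at low and 30.7 to 37.5 CPM at high glucose (log2 difference 0.13, limma adjusted p = 0.201). ZNF93, which silences LINE-1 elements, had a log2 difference of 0.07 (limma adjusted p = 0.477), and the groups of both genes overlapped. Of their transcripts' words 20.6% and 21.3% occur in other genes.
High glucose replicate 1 was the lowest high glucose library for both. Without it, ZNF91 gave 0.19 (limma adjusted p = 0.0243) and ZNF93 0.14 (limma adjusted p = 0.0497), so that 2 of the 5 were higher and none lower. ZNF274, which binds the ends of ZNF genes, and ZNF445, which guards genomic imprints, had log2 differences of 0.24 and -0.22 (limma adjusted p = 0.0625 and 0.073). ZNF10, also a KRAB repressor, was under the minimum at 8.10 CPM at low glucose, and it rose to 12.4 CPM (log2 difference 0.56, limma adjusted p = 0.00251). ZNF765 was under it too, at 4.28 and 4.47 CPM (limma adjusted p = 0.745), and ZNF649 was listed at 0 in every library.
ZNF703, a gene amplified in luminal breast cancers, was at 24.9, 25.3, 21.2 and 25.1 CPM at low glucose and 48.7, 40.1, 42.2 and 38.8 CPM at high glucose. It rose by 0.79 on the log2 scale (SE 0.09, limma adjusted p = 2.85e-04) without overlap.

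**Figure D4:**
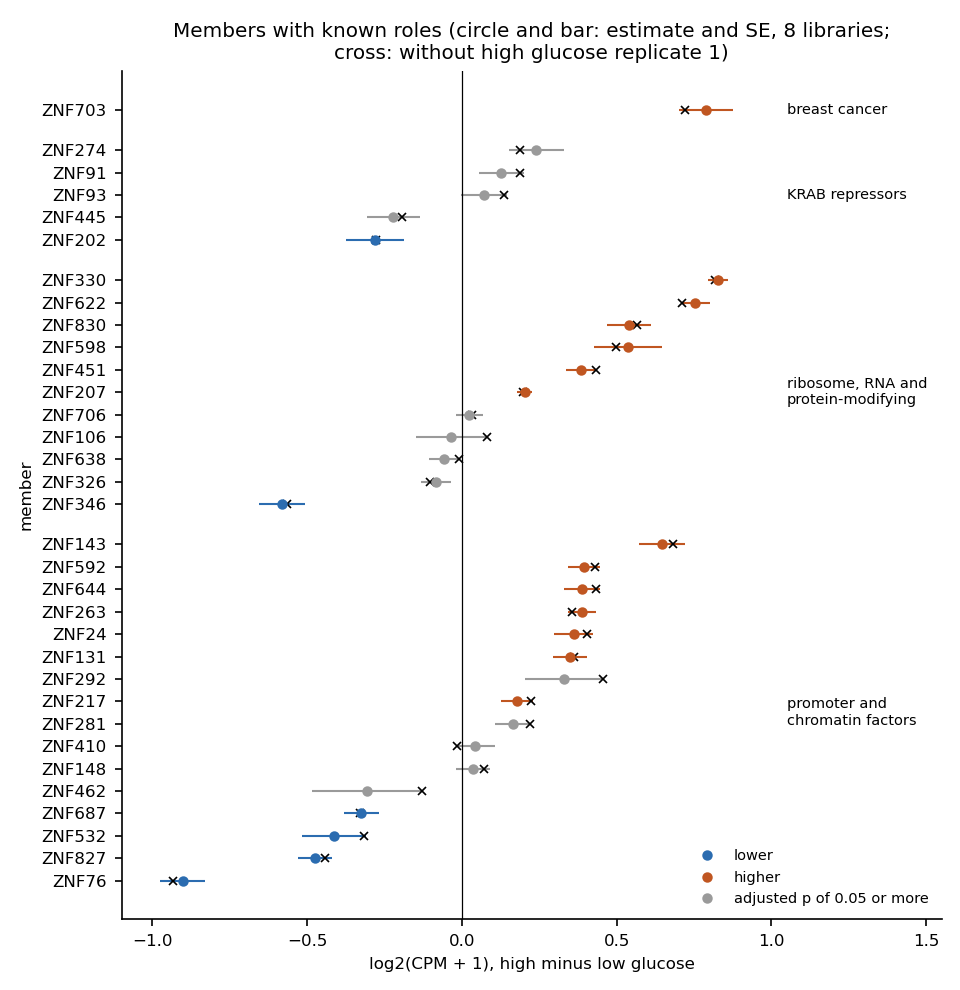
Difference of high minus low glucose in log2(CPM + 1) for members of the listed roles, circles and bars for limma estimates and standard errors over 8 libraries, crosses for estimates without high glucose replicate 1. In the ribosome, RNA and protein-modifying list 6 of 11 members are higher and ZNF346 is lower, and ZNF143 and ZNF76 lie on opposite sides of 0.

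By level, the 5 most abundant members at low glucose were ZNF146 at 217 ± 5.40 CPM, ZNF217 at 152 ± 6.02, ZNF664 at 149 ± 1.82, ZNF207 at 141 ± 2.80 and ZNF638 at 120 ± 3.30 (SD, n = 4). The standard deviations of ZNF217 and ZNF664 overlap. Per kilobase of transcript the order changed, with ZNF146 at 64.9, ZNF664 at 34.6, ZNF217 at 26.3, ZNF638 at 18.5 and ZNF207 at 10.2 CPM, and the median member at 4.92. ZNF664 was at 147 to 151 CPM at low and 186 to 225 CPM at high glucose (log2 difference 0.47, limma adjusted p = 3.78e-04). ZNF146, with 10 finger patterns and no KRAB pattern, differed by 0.10 (limma adjusted p = 0.0232), a call that was lost in 6 of 18 alternatives with adjusted p up to 0.669.

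Among members with the KRAB pattern, 45 of 135 were lower (33.3%) and 32 higher (23.7%), with a median of -0.05, where 34.6% and 34.0% of genes at the same level were lower and higher. Among those without it, 33 of 100 were lower and 33 higher, with a median of -0.03. With high glucose replicate 1 left out, the counts were 43 and 32 with the pattern, and 31 and 38 without it. On chromosome 19, 24 of 98 members were lower and 30 higher (median 0.03), and elsewhere 55 of 141 were lower and 36 higher (median -0.09). These are 24.5% and 30.6% on chromosome 19 and 39.0% and 25.5% elsewhere. Without that library the counts were 23 and 32, and 52 and 39.
The KRAB members were also counted by location, without a test between locations. On chromosome 19, 19 of 80 were lower and 22 higher (median 0.03), and on other chromosomes 26 of 55 were lower and 10 higher (median -0.23). Without high glucose replicate 1 the counts were 17 and 24 on chromosome 19, and 26 and 8 elsewhere. By number of fingers, 2 of 13 members with 0 or 1 pattern were lower and 5 higher, with 2 to 6 patterns 14 of 42 and 14, with 7 to 12 patterns 38 of 105 and 30, and with 13 or more patterns 24 of 75 and 16. In the fit without high glucose replicate 1 these were 2 and 6, 16 and 14, 34 and 29, and 22 and 21. Across members, the log2 change had a Spearman rho of -0.24 with GC content (n = 237), against -0.21 over genes at the same level, and -0.02 with transcript length.

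The 98 members of chromosome 19 fell into 12 groups separated by more than 1000000 bases between starts (GRCh37). The neighbourhoods described next were chosen after their values were seen. In the group at chr19:19821281-22274282, 8 of 18 members were higher and 2 lower, with a median of 0.17, where 34.0% and 34.6% of genes at the same level were higher and lower. It holds ZNF90, and also the consecutive members ZNF430, ZNF714 and ZNF431, whose starts are 61525 and 59862 bases apart. ZNF430, ZNF714 and ZNF431 had log2 differences of 0.73, 0.50 and 0.48. Shared 31-base words made up 22.9% of the ZNF430 and 17.4% of the ZNF431 transcript, so reads may be divided among such copies.
All 4 members at chr19:35168544-35436074 were lower. ZNF302, ZNF181, ZNF599 and ZNF30 fell by 0.56, 0.68, 0.69 and 0.27 (limma adjusted p = 2.31e-04, 2.10e-04, 1.31e-04 and 0.0107). Shared words made up 27.03% of the ZNF302, 21.4% of the ZNF181 and 0.0651% of the ZNF599 transcript. The neighbouring group at chr19:36673178-38210662, which holds ZNF850 and ZNF146, had 9 higher and 4 lower among 19 members. Without high glucose replicate 1 the calls were 9 higher and 2 lower in the first of these groups, 4 lower in the second, and 9 higher and 4 lower in the last.
On chromosome 16, the consecutive members ZNF200, ZNF263, ZNF174 and ZNF597 all rose, with log2 differences of 0.40, 0.39, 0.39 and 0.51. Genes that are not members may lie between consecutive members. On chromosome 8, the consecutive members ZNF517, ZNF7, ZNF250 and ZNF16 fell by 1.16, 0.31, 0.34 and 0.23. ZNF251, the member before ZNF517 by position, had no call (log2 difference -0.08). The fall of ZNF16 had a limma adjusted p of 0.0271, and of 0.0585 without high glucose replicate 1.
Neighbours did not always move together. Of 95 pairs of adjacent members with starts within 200000 bases, 34 had a call for both, of which 21 moved in the same and 13 in opposite directions. The share for adjacent genes of any name is not given, and whether neighbours moved together more often than other genes was not tested. ZNF789 and ZNF394 on chromosome 7, which overlap on opposite strands, fell by 0.49 and rose by 0.64 (limma adjusted p = 0.0103 and 5.99e-05).

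**Figure D5:**
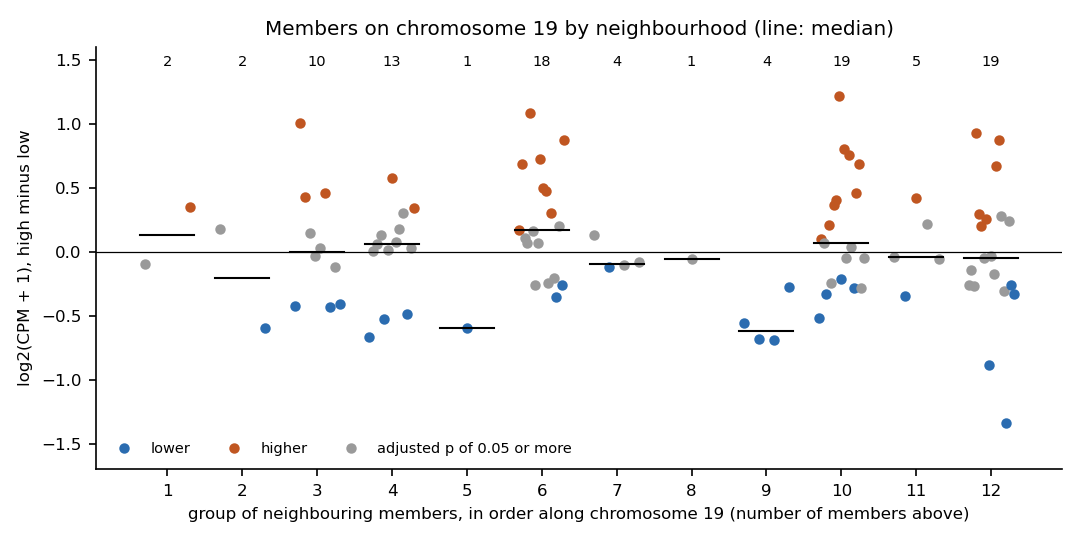
Difference of high minus low glucose in log2(CPM + 1) for the 98 members on chromosome 19, in 12 groups of neighbours in order along the chromosome, with points for members and lines for group medians. All 4 members of group 9 are lower, and 8 of 18 in group 6 are higher.

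The silencing machinery that KRAB proteins recruit was examined together with related chromatin genes, as a list of 29 symbols. In the table were 28 of them, and the remaining symbol is an older name of TASOR. Of these 28 genes, 12 rose, 7 fell and 9 had no call, with a median of 0.13, and 12 rose and 6 fell without high glucose replicate 1. All 28 were at or above 10 CPM, where 34.0% of genes rose and 34.6% fell, and the shares in the list were 42.9% and 25.0%. TRIM28, the corepressor itself, was at 92.5 CPM at low and 110 at high glucose on average and had no call (log2 difference 0.23, limma adjusted p = 0.108). SETDB1 fell by 0.24 (limma adjusted p = 0.0156) and CBX5, which encodes HP1 alpha, by 0.47 (limma adjusted p = 0.00553).
The smallest adjusted p belonged to RBBP7, MORC3, CHD3 and HDAC1, all higher, with log2 differences of 0.44, 0.76, 0.79 and 0.41 (limma adjusted p = 5.47e-06, 7.11e-06, 6.14e-05 and 7.68e-05). CHD3 and CHD4, alternative ATPases of the NuRD complex, moved in opposite directions, CHD4 falling by 0.42 (limma adjusted p = 2.80e-04).

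Related zinc finger families at the same level gave other counts. Of 23 ZBTB genes 12 were higher and 4 lower (median 0.30), and of 9 ZSCAN genes none was higher and 4 were lower (median -0.28). Of 11 ZFP genes 2 were higher and 6 lower (median -0.33), and of 4 ZKSCAN genes 1 was higher and 1 lower (median -0.21). When high glucose replicate 1 was left out, 11 ZBTB genes were higher and 3 lower, and the counts of the other families were the same. No test was made between families, and 34.6% and 34.0% of genes at the same level were lower and higher.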

How the data were processed

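RNA sequencing libraries of MDA-MB-157 cells, 4 at 5 mM and 4 at 25 mM glucose, were analysed from 1 table of CPM values (read counts per 1000000) that the authors deposited after scaling with edgeR TMM factors. The study's methods, written for tumors, xenografts and cultured cells, describe a stranded TruSeq mRNA kit, trimming, TopHat alignment to hg19 with an Ensembl annotation, and a CPM filter. The labels name hg38 and the gene identifiers carry version numbers, so which build and annotation made this table is not established. The counting tool and its strand setting are not given in the sources used here. Low values lay on steps of 1 read, but only 72.4% to 73.9% of values under 200 reads were whole within 0.01 read, so whole reads were not recovered and no count test was run. Of 21077 lines, 18 pseudoautosomal Y copies were left out. Reads per library were estimated as the column sum divided by the step, from 9721649 to 12482542. No pair of libraries had identical values.

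Values were analysed as log2(CPM + 1), a scale that understates changes of low genes. High and low glucose were compared with limma 3.58.1 in R 4.3.3 (lmFit, eBayes with trend, 2-sided), and p-values were adjusted over all 21059 genes by the Benjamini-Hochberg method. The step was tested on simulated data. Replicate numbers in the labels give no shared batch. Deviations of same-numbered libraries from their group means had correlations of -0.04 to 0.07. With 4 libraries a group such values cannot exclude a pairing, so pairing is not established and the main fit was unpaired. Positions, lengths, GC content, overlaps and translated proteins came from GENCODE release 44 on GRCh37, which matched all 239 members, with a canonical transcript for 237. Symbols were matched to RefSeq promoter windows, and the first listed window was used for 46 members with several. Positions are those of the annotation, whichever build the reads were aligned to. A C2H2 finger was counted as C-X(2-4)-C-X(12)-H-X(3-5)-H, without overlap, and a KRAB box by a short pattern of its core. Protein identity came from a global alignment.

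The members and lists were chosen with earlier results of these data known. Named members were the 5 most abundant, the 6 largest rises and 6 largest falls among those with an adjusted p under 0.05 and no overlap of the groups, and the members in the role lists, 46 in all. The alternatives were other scalings, pseudocount, filter, variance model, library weights, a replicate block, removal of length or GC trends, leaving out each library, and other level minimums.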

Additional observations from a re-analysis of the deposited data

Results flagged for a closer look

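In groups of 4 libraries, 1 library lay far from the other 3 in 3 of the 92 groups examined (46 named members, both glucose levels), where chance gives about 1 in 20, or 4.6. ZNF687 was at 33.4 CPM in low glucose replicate 2 and at 30.1 to 30.5 in the other 3. ZNF703 was at 21.2 CPM in low glucose replicate 3 and at 24.9 to 25.3 in the other 3. ZNF106 was at 62.5 CPM in high glucose replicate 1 and at 85.1 to 89.7 in the other 3, and its log2 difference was -0.04 with that library (limma adjusted p = 0.852) and 0.08 without it (limma adjusted p = 0.16).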

How the results depend on the processing

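The counts of members depended on how the members were chosen. With a low glucose mean of at least 20 CPM, 38 of 123 were lower and 37 higher, and with no level minimum 127 of 460 were lower and 100 higher. Of all genes tested, 24.8% were lower and 22.0% higher. The share of genes of any name at a minimum of 20 CPM is not given. The median change was 0.0216 with a mean over all 8 libraries of at least 10 CPM and 0.067 with a high glucose mean of at least 10 CPM, against -0.05 here. Under the 18 alternative fits the counts stayed within 1.5 times. Leaving out 1 library at a time gave 68 to 75 lower, 59 to 71 higher and medians of -0.09 to 0.00086. With a replicate block, which the labels do not support as a pairing, 72 were lower and 66 higher, with a median of -0.05. With the length trend removed, 88 of 237 were lower and 76 higher, and with the GC trend removed 89 and 72. In these trend fits, higher calls were 46.3% and 44.7% of the called members, and 52.3% and 52.0% of called genes at the same level. The medians were -0.05 and -0.08 for the members, and 0.02 and 0.01 for those genes. With the block, higher calls were 47.8% of called members and 50.1% of called genes at the same level. With 1 library left out they were 45.1% to 48.6% and 49.2% to 50.3%.

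Of the 33 named members with a call, 30 kept it in all 18 fits, and ZNF146, ZNF202 and ZNF217 lost it in 6, 11 and 7. Under the block, the calls of ZNF146 (adjusted p = 0.0901) and ZNF202 (adjusted p = 0.121) were lost, by limma, and those of ZNF445 (adjusted p = 0.00962) and ZNF292 (adjusted p = 0.0341) were gained. Of the 13 named members without a call, 9 gained one in at least 1 fit, 28 times in all. No called value changed sign. Median-of-ratios scaling moved the median of the members from -0.05 to -0.01, and that of genes at the same level from -0.01 to 0.03. At 4 libraries a group, members near 10 CPM rest on about 113 to 142 reads, which limits their precision.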
